A study of Mus musculus with 8 samples.

Results

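Eph receptors are cell surface tyrosine kinases, and 10 of their genes (Epha1, Epha2, Epha3, Epha4, Epha5, Epha7, Ephb2, Ephb3, Ephb4 and Ephb6) were followed in fibroblasts of the mouse colon. The rows of the deposited table that the platform annotation ties to exactly one of these genes were taken, and where a gene had several such rows one was selected by the highest mean over the 8 arrays. Each matched receptor had a single row, so that mean made no choice; the 10 genes themselves were listed with earlier results of these data known. Of the 10 receptors 9 were matched, among 30743 genes with a row of their own. No row of the annotation used here names Ephb2 alone, so Ephb2 is not described.

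The colon of wild-type C57BL/6J mice was dissociated and fibroblasts were isolated by flow cytometry as cells lacking Epcam (an epithelial surface protein), CD45 (on leukocytes) and CD31 (on endothelium) and carrying gp38, the podoplanin coded by Pdpn. They were then divided by CD90, the surface glycoprotein coded by Thy1, into a CD90- and a CD90+ population, each with 4 arrays. The titles number the CD90- arrays 13, 15, 17 and 19 and the CD90+ arrays 14, 16, 18 and 20. The populations came from 4 mice, no treatment or mutant allele is named, age and sex are not given in the sources used here, and no label ties an array to a mouse. The p-values therefore reflect the spread among these arrays only. Values are log2 expression as the authors deposited them, one colour and one array per sample, and differences are CD90+ minus CD90-.

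Eph receptors bind ephrins, ligands that are themselves fixed to the membrane of a neighbouring cell, so that contact between cells can signal in both directions. Class A receptors mostly bind ephrin-A ligands, which hang on a lipid anchor, and class B receptors mostly bind ephrin-B ligands, which span the membrane; EphA4 binds both kinds. In the gut they are best known from the crypt epithelium, where EphB2 and EphB3 help to keep cells in their place along the crypt axis, and elsewhere from axon guidance, vessel patterning and tissue boundaries.

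Of the 9 measured receptors, Epha7 was clearly higher in CD90+ cells and Epha1 slightly higher, Epha2 and Epha4 were lower, Ephb3, Ephb4 and Ephb6 had intervals around 0, and Epha3 and Epha5 were too dim to be tested. The bases before the RefSeq start of the 3 receptors with the widest differences are shown because these members carry the main result; whether the populations use these starts was not measured. Each stretch holds 250 bases before the start on assembly GRCm38.p6, 5′ to 3′ on the gene's strand, and for Epha7, with 2 starts listed, the first was taken. Epha7 is at chr4:28812881-28813130 on the plus strand, Epha4 at chr1:77515089-77515338 on the minus strand and Epha2 at chr4:141300971-141301220 on the plus strand. Capitals mark 3 motifs that were searched on both strands and chosen after the sequences had been read. These are the GC box, GGGCGG, the box whose letters are CCAAT, and CGTCA, the core of the palindromic cAMP response element.
Epha7: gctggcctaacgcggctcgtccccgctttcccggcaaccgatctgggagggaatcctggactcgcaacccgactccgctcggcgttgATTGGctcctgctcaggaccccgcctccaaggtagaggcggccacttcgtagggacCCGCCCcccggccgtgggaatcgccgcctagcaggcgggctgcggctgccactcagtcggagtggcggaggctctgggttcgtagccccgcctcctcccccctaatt
Epha4: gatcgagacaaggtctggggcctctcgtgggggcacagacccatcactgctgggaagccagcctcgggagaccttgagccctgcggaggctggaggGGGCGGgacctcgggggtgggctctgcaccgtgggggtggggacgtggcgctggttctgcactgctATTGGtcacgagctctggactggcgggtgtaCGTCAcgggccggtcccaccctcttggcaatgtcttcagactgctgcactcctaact
Epha2: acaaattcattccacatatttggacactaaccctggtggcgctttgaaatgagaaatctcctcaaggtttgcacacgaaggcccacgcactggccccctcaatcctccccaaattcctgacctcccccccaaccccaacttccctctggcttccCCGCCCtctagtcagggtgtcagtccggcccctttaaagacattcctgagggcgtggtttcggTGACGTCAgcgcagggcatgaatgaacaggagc

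Each of the 3 promoters holds 1 GC box, a motif found in 32.9% of the 27025 promoters of the same length. Epha7 and Epha4 each hold 1 CCAAT box, found in 34.5% of all promoters. The Epha2 promoter holds a full TGACGTCA, found in 1.62% of all promoters, the whole palindromic element, in which the core occurs on both strands. Epha4 holds the core once, a motif found in 17.9% of all promoters, and Epha7 holds none. The AP-1 motif TGANTCA (6.87% of all promoters) and the TATA motif TATAAA (13% of all) were in none of the 10 listed receptor promoters, Ephb2 included. The Epha7 promoter has 69.2% G and C and 25 CpG pairs, Epha4 66% and 14, and Epha2 55.6% and 9, against medians of 52% and 6 over all promoters. A match of letters is a description of the sequence and shows no binding.

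Thy1 was between 5.46 and 5.57 in the CD90- arrays and between 7.03 (array 14) and 8.11 in the CD90+ arrays, a difference of 2.17 (two-sided exact permutation test over 70 assignments, p = 0.0286, the smallest that 4 arrays against 4 can give; limma adjusted p = 8.13e-05). All 12 measured genes of a fibroblast list, such as Col1a1 and Dcn, were above the array's negative control rows, whose median lay between 6.58 and 6.84 on the 8 arrays. Since these rows lie above the median of all transcript clusters (5.3 to 5.41), a receptor below them may still be expressed, but its level is poorly measured. Arrays 13 and 14 stand apart by Xist (16.16 and 16.27, against 5.89 to 9.32 in the others) and by the Y-linked gene Uty (5.49 and 5.56, against 9.65 to 10.06). Arrays 13 and 20 had the highest Epcam, at 9.19 and 9.4, with 7.21 to 8.03 in the other 6. The test with limma took in the 17228 genes that 4 or more of the arrays showed at 5.36 or above, 5.36 being the middle value of the whole table of clusters. Of these 29.6% were called at an adjusted p under 0.05, 14% higher and 15.7% lower in CD90+ cells, and the populations did not overlap in 32.2%.

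**Figure D1:**
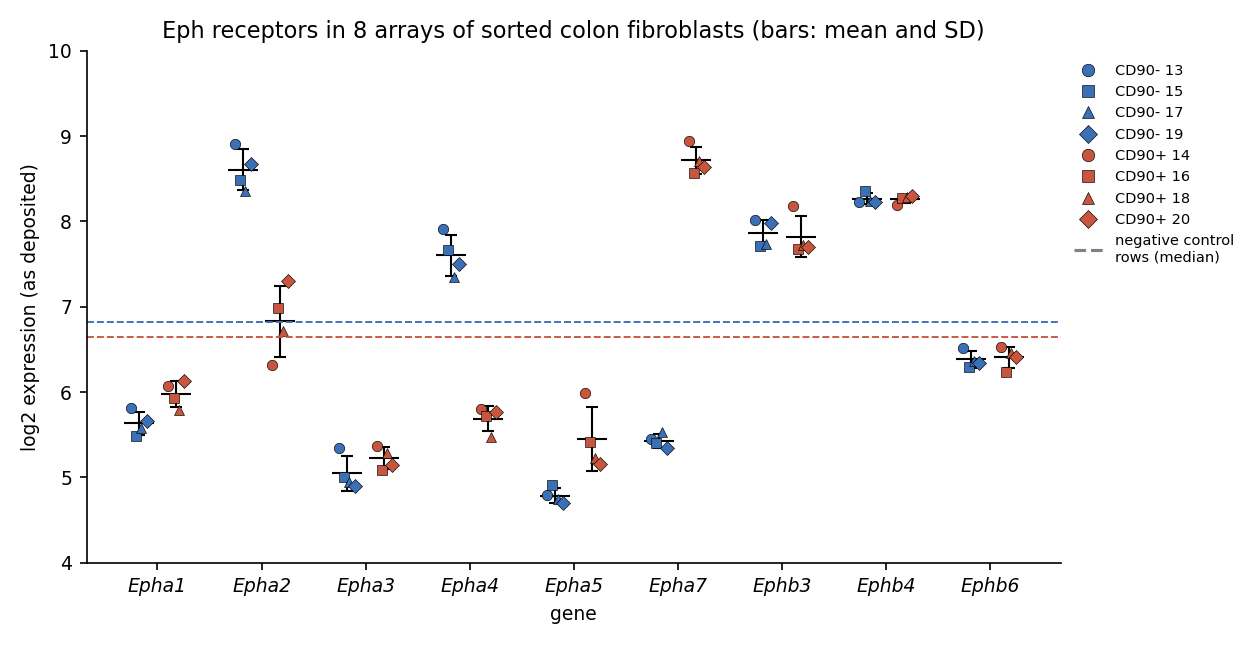
Log2 expression (vertical axis) of the 9 measured Eph receptors in each array; blue points are CD90-, red points CD90+, marker shapes tell the 4 arrays of a population apart, horizontal bars with whiskers are the mean and SD, and dashed lines are the median of the negative control rows in each population. Epha7 lies at 8.57 or more in all CD90+ arrays and at 5.53 or less in all CD90- arrays, while Epha2 and Epha4 lie higher in all CD90- arrays.

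Of the 9 measured receptors, 7 passed the filter on dim rows and were tested: 2 were called higher (Epha7 and Epha1), 2 lower (Epha2 and Epha4) and 3 were not called. That is 57.1% called, beside 29.6% of all genes tested, and the populations did not overlap in 3 of the 7, beside 32.2% of all genes; with so few members, chosen with these results known, the share is a description only. The call of Epha1 rested on a small difference and was lost under several alternatives, as given with its values. Epha3 and Epha5 reached the filter in 1 and 2 arrays and were not tested. Without arrays 13 and 14 the same 4 receptors were called, with differences of 3.22 for Epha7, 0.37 for Epha1, -1.50 for Epha2 and -1.85 for Epha4. The median difference over the 7 tested receptors was 0.00, beside -0.014 over all genes tested.

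EphA7 is a class A receptor known for its roles in the developing nervous system, where it also occurs in shortened forms. Epha7 was at 5.45, 5.40, 5.53 and 5.34 in CD90- arrays 13, 15, 17 and 19, and at 8.94, 8.57, 8.71 and 8.64 in CD90+ arrays 14, 16, 18 and 20. The CD90- values all lie below the negative control rows, and the CD90+ values all lie above them. The mean rose from 5.43 ± 0.079 to 8.72 ± 0.16 (SD, n = 4 in each population), a difference of 3.28 with a 95% interval from 3.08 to 3.49 (limma adjusted p = 1.34e-07). Since the CD90- level is below the negative controls, the 9.74-fold ratio that this difference stands for on the deposited scale is not an exact ratio of RNA amounts. A difference of this size or larger, in either direction, was found in 109 genes, 0.633% of those tested. Epha7 passed the filter with all 4 CD90+ arrays and 3 of the CD90- arrays. Array 14, with the lowest Thy1 of the CD90+ arrays, had the highest Epha7.

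EphA4 is a receptor that binds ligands of both ephrin classes and is known from axon repulsion and from neural crest and somite boundaries. Epha4 was at 7.91, 7.66, 7.35 and 7.50 in CD90- arrays 13, 15, 17 and 19, and at 5.80, 5.72, 5.47 and 5.77 in CD90+ arrays 14, 16, 18 and 20. Every CD90- array was above the median of the negative control rows and every CD90+ array below it, so the size of the difference is poorly measured. The mean fell from 7.61 ± 0.24 to 5.69 ± 0.15, a difference of -1.91 with a 95% interval from -2.21 to -1.62 (limma adjusted p = 1.16e-05).

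EphA2 is a receptor best known from epithelial cells, where ephrin-A1 is its chief ligand. Epha2 was at 8.91, 8.48, 8.36 and 8.67 in CD90- arrays 13, 15, 17 and 19, and at 6.32, 6.99, 6.72 and 7.30 in CD90+ arrays 14, 16, 18 and 20. The populations did not overlap, and the CD90+ mean lay close to the negative control rows, with array 14 under them and array 20 well over them. The mean fell from 8.61 ± 0.24 to 6.83 ± 0.42, a difference of -1.77 with a 95% interval from -2.24 to -1.30 (limma adjusted p = 0.000275); 2.98% of all genes tested differed by as much or more in either direction. Within each population the array with the highest Epcam also had the highest Epha2 (array 13 among CD90- and array 20 among CD90+). Between the populations Epcam was at 8.06 ± 0.83 and 8.19 ± 0.83 (limma adjusted p = 0.867). Without arrays 13 and 20, a setting added after seeing the data, the Epha2 difference was -1.83 (limma adjusted p = 0.000608). Epcam was still between 7.21 and 8.03 in the arrays kept. The part of epithelial RNA in the Epha2 difference was not tested.

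**Figure D2:**
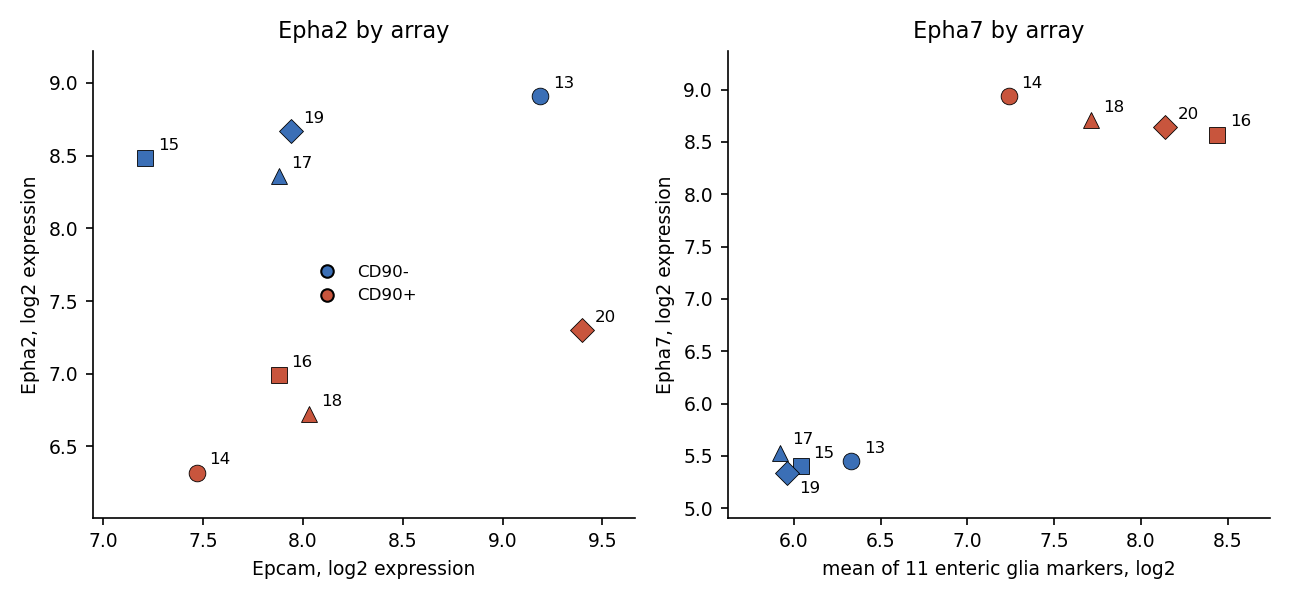
Left, Epha2 (vertical axis) against Epcam (horizontal axis), and right, Epha7 (vertical axis) against the mean of 11 enteric glia markers (horizontal axis), all in log2 expression, one numbered point per array, blue for CD90- and red for CD90+. Epcam spans 7.21 to 9.19 in CD90- and 7.47 to 9.40 in CD90+ arrays. The glia mean spans 5.92 to 6.33 in CD90- and 7.24 (array 14, with the highest Epha7, 8.94) to 8.44 in CD90+ arrays. The part of epithelial or glial RNA in the Epha2 and Epha7 differences was not tested.

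EphA1 was the first member of the family to be described and is found mainly in epithelia. Epha1 was at 5.81, 5.49, 5.58 and 5.66 in CD90- arrays 13, 15, 17 and 19, and at 6.07, 5.93, 5.79 and 6.13 in CD90+ arrays 14, 16, 18 and 20. All values were below the negative control rows, and the populations overlapped between array 13 and array 18. The means of 5.63 ± 0.14 and 5.98 ± 0.15 differed by 0.34, with a 95% interval from 0.12 to 0.57 (limma adjusted p = 0.0306; range over its alternatives 0.0116 to 0.0888). The call was lost when any 1 of arrays 14, 15, 16, 17, 19 and 20 was left out (adjusted p from 0.0526 to 0.084), after a second quantile normalization (adjusted p = 0.0888) and after subtracting each array's median (adjusted p = 0.0764).

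EphA5 and EphA3 are class A receptors known from nervous system development, and EphA3 also from mesenchyme of the embryo. Epha5 was at 4.79, 4.91, 4.75 and 4.70 in CD90- arrays 13, 15, 17 and 19, and at 5.99, 5.42, 5.23 and 5.16 in CD90+ arrays 14, 16, 18 and 20. The populations did not overlap, all values were below the negative control rows, and array 14 was the highest. Without the filter on dim rows the difference of 0.66 had a 95% interval from 0.29 to 1.04 and a limma adjusted p of 0.0258. Epha3 lay between 4.90 and 5.35 in CD90- and between 5.09 and 5.37 in CD90+ arrays. Arrays 13 and 14 held the highest Epha3 value of their population, and without the filter its difference of 0.17 had a 95% interval from -0.08 to 0.42 (limma adjusted p = 0.366).

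Of the 3 measured class B receptors limma called 0 at an adjusted p under 0.05, beside 29.6% of all genes tested, and 0 at an unadjusted p under 0.05, beside 40.5% of all genes tested. With 3 genes, nothing about the class is read from these counts. EphB4 is the receptor of venous endothelium and pairs with ephrin-B2. Ephb4 was at 8.23, 8.36, 8.24 and 8.23 in CD90- arrays 13, 15, 17 and 19, and at 8.19, 8.28, 8.29 and 8.30 in CD90+ arrays 14, 16, 18 and 20. All 8 arrays were above the median of the negative control rows but under the upper quartile of these rows on the same array. The populations overlapped, and the 95% interval of the difference ran from -0.14 to 0.14 (limma adjusted p = 0.993).

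EphB3 acts with EphB2 in positioning crypt epithelium. Ephb3 was at 8.02, 7.71, 7.74 and 7.98 in CD90- arrays 13, 15, 17 and 19, and at 8.18, 7.68, 7.72 and 7.70 in CD90+ arrays 14, 16, 18 and 20. Arrays 13 and 14 were the highest of their populations, and the ranges overlapped. The interval of the difference ran from -0.34 to 0.25 (limma adjusted p = 0.838). EphB6 is a receptor whose kinase domain is catalytically inactive. Ephb6 lay between 6.30 and 6.52 in CD90- and between 6.24 and 6.53 in CD90+ arrays, below the negative control rows, and its difference had a 95% interval from -0.16 to 0.21 (limma adjusted p = 0.843).

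**Figure D3:**
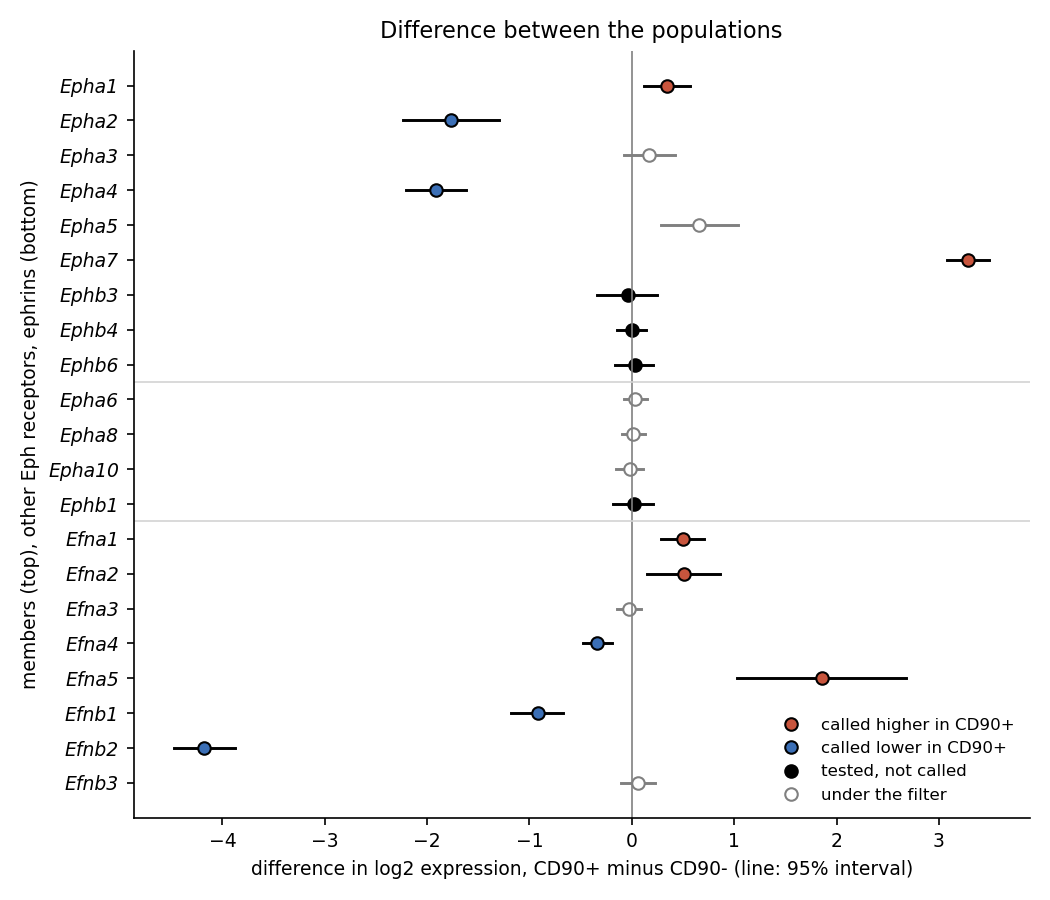
Difference in log2 expression, CD90+ minus CD90- (horizontal axis), with its 95% interval from limma, for the 9 measured members, 4 other Eph receptors and 8 ephrins (vertical axis); red and blue points were called higher and lower, black points were tested and not called, and open points were under the filter, with the interval of the fit without a filter. Epha7 is at 3.28, Epha2 and Epha4 are at -1.77 and -1.91, Efnb2 is at -4.18, and the intervals of the class B receptors cross 0.

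**Figure D4:**
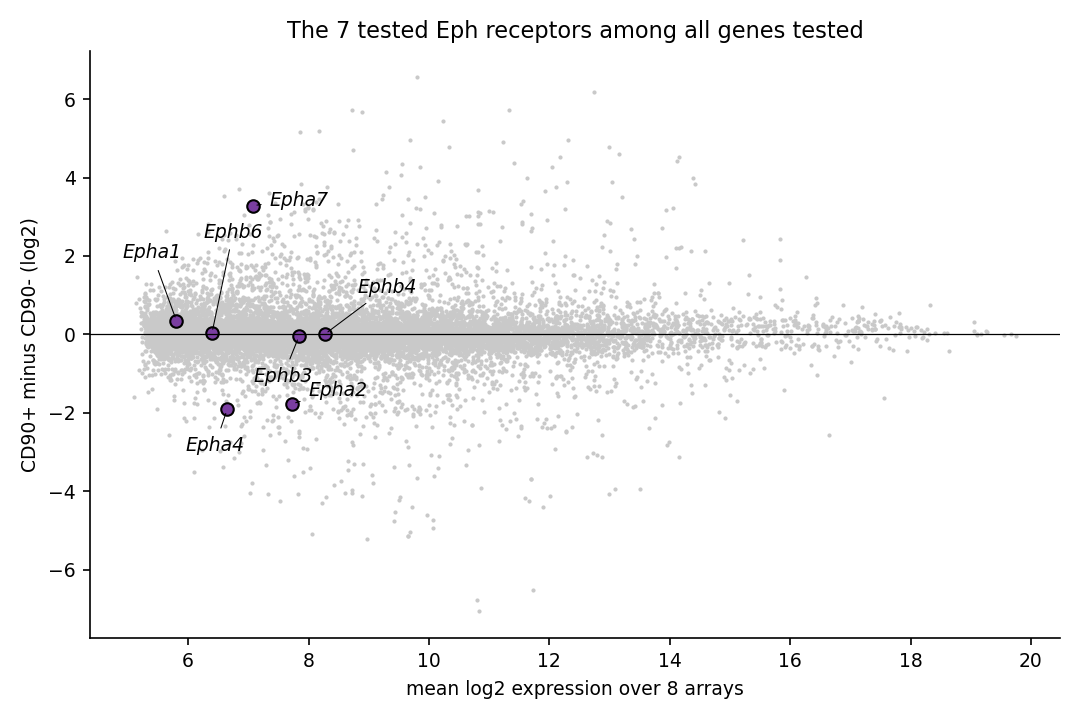
Difference between the populations in log2 expression (vertical axis) against the mean over 8 arrays (horizontal axis) for the 17228 genes tested (grey points), with the 7 tested Eph receptors in purple. Epha7 stands near the upper edge of the points, where 0.633% of genes differ as much, and the 3 class B receptors lie near the line at 0.

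Of the 4 family members outside the 10, 1 was tested, Ephb1, and it was not called, beside 29.6% called over all genes tested; 1 gene cannot be read against that share. Epha6, Epha8 and Epha10 reached the filter in 0 arrays, with values between 3.90 and 4.58, and were not tested. Ephb1, measured by the brighter of its rows, was at 7.08 ± 0.11 and 7.09 ± 0.12, with a 95% interval of the difference from -0.18 to 0.21 (limma adjusted p = 0.906, unadjusted p = 0.846).

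Of the 8 ephrins, all measured, 6 were tested, and 3 were called higher (Efna5, Efna1 and Efna2) and 3 lower (Efnb2, Efnb1 and Efna4), beside 29.6% of all genes tested. Efnb2 codes for a ligand known from arterial endothelium and from differentiated epithelium of the gut. It was at 13.43, 13.80, 13.61 and 13.88 in CD90- arrays 13, 15, 17 and 19 and at 9.47, 9.73, 9.24 and 9.56 in CD90+ arrays 14, 16, 18 and 20, a difference of -4.18 with a standard error of 0.13 (limma adjusted p = 2.18e-07). The CD90- arrays were all higher, by more than the spread of either population. Efnb1, a ligand of crypt-positioning EphB receptors, fell from 10.31 ± 0.1 to 9.39 ± 0.22 (limma adjusted p = 0.000347).

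Efna5, a ligand of several EphA receptors including EphA7, was at 8.32, 6.73, 6.78 and 6.90 in CD90- arrays 13, 15, 17 and 19 and at 9.59, 9.07, 8.69 and 8.82 in CD90+ arrays 14, 16, 18 and 20. Arrays 13 and 14 were the highest of their populations, and the populations did not overlap. Its mean rose by 1.86 (95% interval from 1.03 to 2.68; limma adjusted p = 0.00504), and by 2.24 without array 13. Efna1, the chief ligand of EphA2, rose from 6.41 ± 0.043 to 6.91 ± 0.18 (limma adjusted p = 0.00392). The CD90- means of Efna1 and Efna2 lay under the negative control rows. Efna4 fell by 0.34 from a level at these rows (limma adjusted p = 0.00387). Efna2 was called higher by 0.51 (limma adjusted p = 0.0396) but lost its call when any 1 of arrays 13, 15, 17, 19 and 20 was left out (adjusted p up to 0.0972), without arrays 13 and 20 (0.139), without the filter (0.0568) and with each array's median subtracted (0.0535). Efna3 and Efnb3 reached the filter in 0 arrays.

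**Figure D5:**
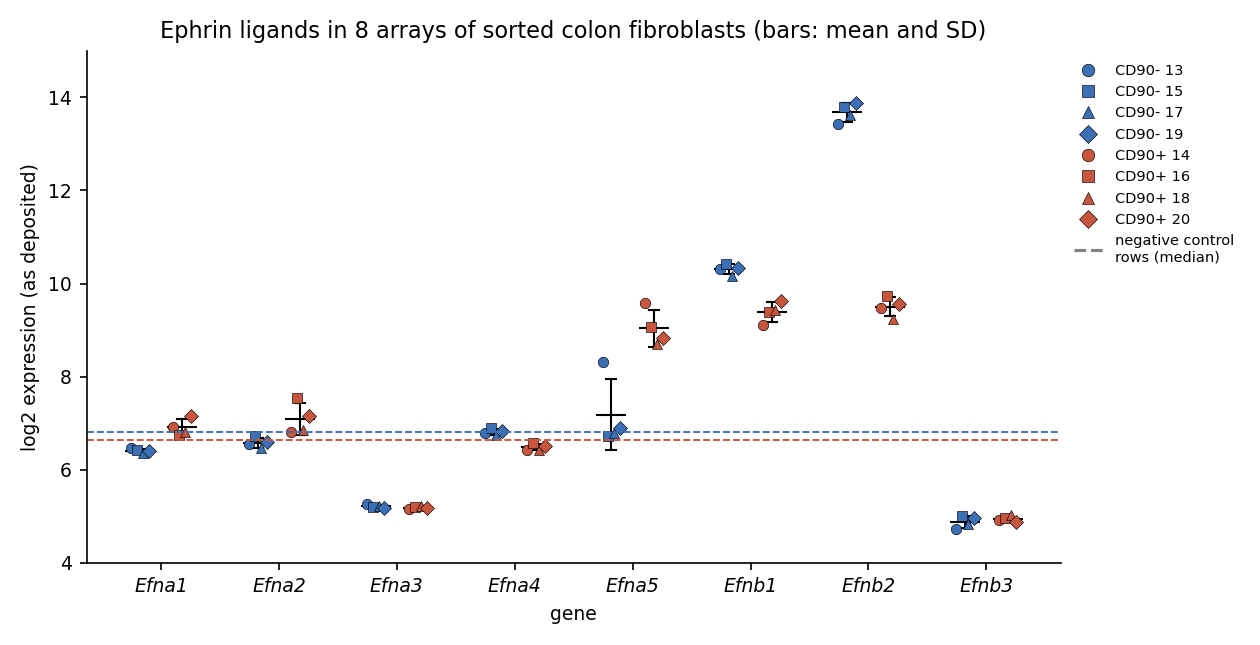
Log2 expression (vertical axis) of the 8 ephrins in each array, drawn as for the receptors: blue CD90-, red CD90+, bars for mean and SD, dashed lines for the negative control rows. Efnb2 falls from a mean of 13.68 to 9.50 with no overlap, and Efna5 is higher in all CD90+ arrays, with CD90- array 13 at 8.32 nearest to them.

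The genes described next come from a list of signalling genes drawn up around Eph receptors, and whether they act with these receptors here was not measured. They were picked for their wide differences among those called without overlap, so they are extremes of their list and not its typical members. Fyn, a Src family kinase that Eph and ephrin signalling recruits, rose from 9.88 ± 0.23 to 11.91 ± 0.19 (limma adjusted p = 1.12e-05). Limk1, a kinase that phosphorylates cofilin, rose from 7.73 ± 0.088 to 9.23 ± 0.083. Rasa1, an inhibitor of Ras, rose by 0.95. Ror2, a receptor of Wnt5a, fell from 10.22 ± 0.3 to 7.97 ± 0.18, and Bcar1, the adaptor p130Cas, from 10.92 ± 0.16 to 8.99 ± 0.24 (limma adjusted p = 1.35e-05 and 1.27e-05). Ryk, a Wnt receptor that can pair with EphB receptors, fell by 1.01, the adaptor gene Nck2 by 0.88 and Cbl, a ubiquitin ligase that removes active receptor kinases, by 0.56.

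The genes with values most like those of Epha7 and Epha4 were found by the root mean square difference between row-centred values over the 8 arrays. For Epha7 they were Vcam1 (0.202), Spon1 (0.221) and Thsd7a (0.225), and for Epha4 they were Mast4 (0.13), Sema6a (0.144) and Maml2 (0.149). Vcam1, an adhesion molecule, was at 8.53 ± 0.17 in CD90- and 11.63 ± 0.18 in CD90+ arrays. Mast4, a kinase gene, was at 9.01 ± 0.16 and 7.08 ± 0.27. These likenesses follow the population difference that all 8 genes share and are descriptions.

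Markers of other cells that the gate could hold were measured beside the receptors. Each count of calls below stands beside 14% called higher and 15.7% called lower over all genes tested. Of 11 tested enteric glia markers, 10 were called higher in CD90+ cells. The mean level of the 11 ran from 5.92 to 6.33 in CD90- and from 7.24 to 8.44 in CD90+ arrays. In both populations Gfap, Foxd3 and Cdh2 were below the negative control rows. The part of glia in the Epha7 and Efna5 results was not tested, and fewer cells of a type and less RNA per cell cannot be told apart in sorted bulk samples. Of 15 tested epithelial markers 0 were called by limma (0 at an unadjusted p under 0.05). The mean of all 18 measured epithelial markers ran from 6.79 to 8.24 in CD90- and from 7.01 to 8.22 in CD90+ arrays. Only 7 of 18 measured epithelial markers had means in both populations under the negative control rows. Epcam was above the median of these rows in every array, at 7.21 or more, and above their upper quartile only in arrays 13 and 20. The part of epithelial RNA in the receptor and ephrin results was not tested. Of 15 measured endothelial markers 12, Pecam1, Cdh5 and Kdr among them, and of 13 leukocyte markers 12, Ptprc among them, had means in both populations under the negative control rows, as did 8 of 9 measured neuronal markers. Yet all 3 tested neuronal markers were called higher in CD90+ cells. The mean of all 9 measured neuronal markers, tested or not, ran from 4.87 to 4.89 in CD90- and from 5.55 to 5.65 in CD90+ arrays. Of 6 tested leukocyte markers 3 were called higher and 0 lower. The mean of all 13 measured leukocyte markers ran from 5.02 to 5.18 in CD90- and from 5.21 to 5.53 in CD90+ arrays. Of 11 tested endothelial markers 1 was called higher and 2 lower. Of 8 tested smooth muscle markers 4 were called higher and 3 lower, and of 5 tested mesothelial markers 2 higher and 0 lower. The part of these lists in the receptor and ephrin results was not tested. The mean of the 8 measured pericyte markers ran from 7.04 to 7.30 in CD90- and from 6.60 to 6.82 in CD90+ arrays, though of 6 tested 3 were called higher and 3 lower. The mean of 4 markers of interstitial cells of Cajal ran from 7.17 to 8.55, highest in array 13, and from 6.25 to 6.65. Of 3 tested Cajal markers only 1 was called lower and 0 higher, and Hcn4 was under the negative control rows in both populations. The part of pericytes and Cajal cells in the Epha2, Epha4 and Efnb2 results was not tested. Of 9 tested subepithelial fibroblast genes 9 were called lower, and of 10 tested adventitial and deep fibroblast genes 9 were called higher. Both lists were chosen with earlier results of these data known. Ackr4 and Dpp4 of the adventitial and deep list were under the negative control rows in both populations.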

How the data were processed

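RNA of 8 sorted fibroblast samples was measured on Affymetrix mouse transcriptome arrays, after amplification of 2 ng per the labels' protocols, a step that can widen the spread of weak signals. Each deposited value is a log2 value, 1 per row and array, made with Affymetrix Expression Console 1.1 and RMA per the submitters' processing notes; the sources used here give neither settings nor genome build. The scale reached 19.85, so folds are folds on this scale. Of 65956 transcript clusters the platform annotation named 1 gene for 31216, several for 1534 and none for 33206, with symbols updated through RefSeq (GRCm38.p6). The row with the highest mean stood for a gene.

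Genes at 5.36 (50th percentile of all cluster values) or more in at least 4 of 8 arrays were tested with limma 3.58.1 in R 4.3.3 (lmFit and eBayes, two-sided, no block, Benjamini-Hochberg over 17228 genes, threshold 0.05) and the fit was tested on simulated data. The means of 13 marker lists, the sort gate genes among them, and Thy1 alone were compared by exact permutation tests. The subepithelial, adventitial, leukocyte, glia, neuron, pericyte and Cajal lists reached an exact permutation p = 0.0286, the smallest that 4 arrays against 4 can give. Their adjusted exact permutation p = 0.0531 over the 13 lists follows only from how many lists share that smallest p. It takes no account of the size of a difference, so nothing is read from its place beside the threshold. The fibroblast, epithelial, endothelial, smooth muscle, mesothelial and gate lists had exact permutation p from 0.0571 to 0.943. Named were all members, other Eph receptors and ephrins, the gate genes, up to 5 rising and 5 falling signalling genes with the widest differences among called genes without overlap, and the 3 genes most like the highest and the lowest receptor. The counts over the signalling list and some of its genes are not reported here. The members and lists were chosen with earlier results of these data known. Promoter sequences are RefSeq's, and all 10 receptors matched. Tables and plots used Python 3.11.15, pandas 2.3.3 and matplotlib 3.10.9.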

Additional observations from a re-analysis of the deposited data

Results flagged for a closer look

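Among 64 sets of 4 arrays (a named gene in a population), 3 held an array far from the other 3 by Dixon's criterion, about as many as the 1 in 20 that chance gives. Ephb3 was at 8.18 in CD90+ array 14 and between 7.68 and 7.72 in the other CD90+ arrays. Ephb4 was at 8.36 in CD90- array 15 and between 8.23 and 8.24 in the other CD90- arrays. Efna5 was at 8.32 in CD90- array 13 and between 6.73 and 6.90 in the other CD90- arrays.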

How the results depend on the processing

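The calls of Epha7, Epha4 and Epha2 and of Efnb2, Efnb1, Efna1, Efna4 and Efna5 were kept under all 18 alternatives run, 17 planned and 1 (without arrays 13 and 20) added after seeing the data. Epha7 ranged from 3.21 to 3.33, Epha4 was -1.81 or lower and Epha2 ranged from -1.93 to -1.50. The number of receptors called higher was 1 in place of 2 with the stricter filter at the 60th percentile, where Epha1 was not tested, after a second quantile normalization and after subtracting array medians. It ran from 1 to 2 when single arrays were left out. With no filter Epha5 was called. Differences of receptors that were not called changed sign around 0. After a second quantile normalization Ephb3 was at 0.00; after subtracting array medians Ephb4 was at -0.04, Ephb6 at -0.02, Ephb1 at -0.03 and Pdpn at -0.01; with array weights Ephb1 was at -0.04; without arrays 13 and 14 Ephb1 was at -0.01; without arrays 13 and 20 Ephb3 was at 0.05 and Ephb4 at -0.02. Without single arrays Ephb3 ran from -0.16 to 0.01, Ephb4 from -0.01 to 0.03, Ephb6 from -0.01 to 0.08, Ephb1 from -0.04 to 0.08, Pdpn from -0.07 to 0.12 and Epcam from -0.26 to 0.52. The cause of these changes was not tested. The median difference of all genes was -0.014, and -0.008 and -0.058 under the 2 other scalings. No member had more than 1 row, so the choice among rows gave no alternative for them. A paired fit took consecutive title numbers as a block, a pairing the labels do not state, since the populations share no replicate number; Xist had the same order over these pairs in both populations. In it 2 receptors were called higher and 2 lower, and it changed no call of a tested receptor or ephrin. Signal near the negative control rows limits Epha1, Epha3, Epha5 and Ephb6, and among the called ephrins Efna1, Efna2 and Efna4. It also limits the size of the Epha7 and Epha4 differences, since the CD90- mean of Epha7 (5.43) and the CD90+ mean of Epha4 (5.69) lay below these rows. The CD90+ mean of Epha2 (6.83) lay close to them.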
